A study of Mus musculus with 8 samples.

Results

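The genes described here are those of death receptor signalling and necroptosis: the ligand gene Tnf, the receptor genes Fas, Tnfrsf1a, Tnfrsf1b and Tnfrsf12a, and the intracellular genes Ripk1, Ripk3, Mlkl, Casp8 and Cflar. They were chosen by name, 10 in all, and 9 of them were measured by a probe set that carried a single gene symbol equal to the member. Ripk1 is named only. The 9 stood among 19938 singly named genes, each taken at its probe set of highest mean. All 8 samples came from male mice of strain CH3 as labelled, 8 to 10 weeks old, and each sample is called a heart here. The left anterior descending coronary artery was occluded for 45 minutes and then reperfused for 2 hours. The mice of the DJ-1 group (4 samples) received recombinant DJ-1 protein 1 hour before ligation. The mice of the placebo group (4 samples) received phosphate-buffered saline at that time. DJ-1 is a redox-sensitive protein encoded by Park7. Both groups underwent ischaemia and reperfusion, so no uninjured heart was part of the comparison and the values do not show what injury itself did to these genes.

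Tumour necrosis factor binds to a pair of receptors on the cell surface, and the receptor encoded by Tnfrsf1a carries a death domain, as Fas does. A death domain recruits adaptors that gather the kinase RIPK1 and the protease caspase-8. Where caspase-8 is active the cell dies by apoptosis, or lives if the caspase-like protein cFLIP (Cflar) restrains it. Where caspase-8 is blocked, RIPK1 and RIPK3 join through a shared motif, RIPK3 phosphorylates MLKL, and MLKL breaches the plasma membrane, which is necroptosis. In heart muscle, death of this kind is known from reperfusion injury, in which released cell contents draw in leukocytes.

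No member passed the test for a difference between DJ-1 and placebo hearts. Adjusted p over all 19938 genes in limma ran from 0.824 to 0.905 for the 9 members, 0 of 9 passed 0.05, and the same threshold called 0% of all genes (0 genes). At an unadjusted p under 0.05 the count was also 0 of 9 members, where 5.99% of all genes (1194) lay under it. The means of 7 members were higher in DJ-1 hearts and those of 2 were lower, while 52.5% of all genes had a higher and 47.5% a lower mean. The median difference of the members was 0.17 log2 units (DJ-1 minus placebo), against 0.0082 over all genes. The arrays of the groups overlapped for each member (0 of 9 without overlap), and 3.22% of all genes had none. The 95% confidence interval included 0 for all 9. With 4 arrays against 4, an exact two-sided permutation test cannot go below p = 0.0286, and the lowest value among the members was 0.114, for Ripk3.

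**Figure D1:**
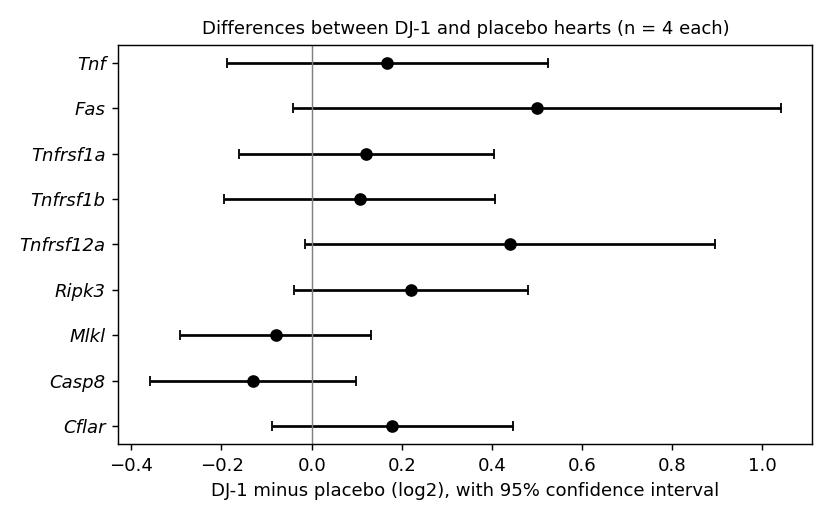
Differences between DJ-1 and placebo hearts for the 9 measured genes, in log2 units as DJ-1 minus placebo (horizontal axis), with the 95% confidence interval of the limma fit on 4 arrays a group. Every interval crosses 0; Fas (0.50) and Tnfrsf12a (0.44) have the largest differences of the 9 and the widest intervals.

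The arrays as a whole were alike: Pearson correlations between them over all genes ran from 0.987 to 0.994, and their medians from 5.28 to 5.35 in DJ-1 and from 5.25 to 5.29 in placebo hearts. On the first principal component, DJ-1 replicates 3 and 4 scored 19.6 and 23.5 and lay apart, with the other 6 arrays between -15.0 and 5.31. Placebo replicates 1 to 4 scored -7.34, -15.0, 5.31 and -0.24, so replicates 3 and 4 scored above 1 and 2 in both groups. The difference of each member with DJ-1 replicates 3 and 4 left out is given beside its main value. That comparison keeps placebo replicates 3 and 4, so it is not balanced for this order. The cardiomyocyte markers fixed for this tissue were all 13 above the background guide (the 95th percentile of olfactory receptor genes, 4.74), and their mean lay between 12.32 and 12.51 in DJ-1 and between 12.38 and 12.55 in placebo hearts. All 9 members also lay above that guide. In tissue RNA of this kind, fewer cells of a type and less RNA per cell cannot be told apart. The labels number the samples within a group and do not say outright that each came from its own mouse, so p-values measure the spread between these samples. The codes in the labels run through the placebo samples and then the DJ-1 samples, so an order of processing and the treatment cannot be told apart.

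The stretches before the transcript starts of the 3 most variable members, Fas, Tnfrsf12a and Tnf, are shown as a description of their sequence. They are the 250 bases before a RefSeq transcript start in GRCm38.p6, read 5′ to 3′ along the gene: Fas at chr19:34290409-34290658 (plus strand), Tnfrsf12a at chr17:23677450-23677699 (minus strand) and Tnf at chr17:35202008-35202257 (minus strand). Capitals mark matches, on either strand, to GGG and CC parted by any 5 bases (a loose NF-kappaB form), TGANTCA (AP-1), TTCNNNGAA (STAT), TATAAA (the TATA box) and GGGCGG (the GC box bound by Sp1).
Fas: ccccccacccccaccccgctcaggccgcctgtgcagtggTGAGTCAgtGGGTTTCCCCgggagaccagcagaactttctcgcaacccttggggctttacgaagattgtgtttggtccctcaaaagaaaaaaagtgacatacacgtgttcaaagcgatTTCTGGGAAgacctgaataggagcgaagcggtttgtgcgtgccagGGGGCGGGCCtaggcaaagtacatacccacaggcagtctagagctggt
Tnfrsf12a: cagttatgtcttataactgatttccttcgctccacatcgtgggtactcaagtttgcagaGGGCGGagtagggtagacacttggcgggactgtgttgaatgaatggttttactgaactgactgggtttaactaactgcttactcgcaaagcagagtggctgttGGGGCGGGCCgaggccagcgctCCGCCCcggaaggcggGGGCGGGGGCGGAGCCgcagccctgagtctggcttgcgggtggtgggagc
Tnf: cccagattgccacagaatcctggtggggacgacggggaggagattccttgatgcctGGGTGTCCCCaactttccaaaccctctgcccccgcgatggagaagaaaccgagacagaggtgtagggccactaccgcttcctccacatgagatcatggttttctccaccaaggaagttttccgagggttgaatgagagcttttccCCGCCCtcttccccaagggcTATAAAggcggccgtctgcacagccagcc

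In the Fas stretch, TGAGTCA begins 211 bases before the start and is followed by GGGTTTCCCC at 202 bases, and a STAT match begins at 93. The Tnf stretch holds GGGTGTCCCC at 194 bases and TATAAA at 29, the usual place of a TATA box. The Tnfrsf12a stretch holds 2 NF-kappaB-like matches, at 88 and 44 bases, and both overlap a GC box, as does the match at 48 bases in Fas. Of 32851 RefSeq promoters of the same length, 45.8% hold the NF-kappaB-like form, 32.7% the GC box, 12.4% TATAAA, 7.02% the STAT form and 6.75% the AP-1 form. Promoter sequence was matched for all 10 members. The NF-kappaB-like form stood before 6 of them, the GC box before 6, TATAAA before 2, the AP-1 form before 1 (Fas) and the STAT form before 4. These counts are by gene and the percentages by promoter, so they cannot be set directly against each other. Ripk1 had more than 1 stretch, and its NF-kappaB-like and STAT matches lay only in chr13:34002624-34002873. A match is a description of letters and says nothing on whether a factor was bound in these hearts.

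Tnf encodes the ligand, made as a membrane protein and shed by a protease. Its values in DJ-1 replicates 1 to 4 were 5.97, 6.63, 6.28 and 6.67, and in placebo replicates 1 to 4 they were 6.13, 6.53, 6.04 and 6.19. The heart with the lowest value belonged to the DJ-1 group, as did the highest 2, so the groups overlapped across most of their range. Tnf averaged 6.39 ± 0.33 in DJ-1 and 6.22 ± 0.21 in placebo hearts (SD, n = 4 each), a difference of 0.17 (SE 0.16, 95% confidence interval -0.19 to 0.52). That difference was smaller than the spread between replicates (adjusted p = 0.878 in limma). It was 0.31 without DJ-1 replicate 1, 0.073 without replicate 4 of that group and 0.082 with DJ-1 replicates 3 and 4 both left out.

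Fas, the receptor for Fas ligand, had the largest difference among the members and also varied most between hearts, with a pooled within-group SD of 0.46. Its values were 7.69, 7.97, 6.91 and 7.42 in DJ-1 replicates 1 to 4, and 7.19, 7.42, 7.04 and 6.35 in placebo replicates 1 to 4. DJ-1 replicates 1 and 2 were the highest hearts, placebo replicate 4 was the lowest by a wide margin, and DJ-1 replicate 3 lay below 3 of the placebo hearts. Fas averaged 7.50 ± 0.45 in DJ-1 and 7.00 ± 0.46 in placebo hearts (SD, n = 4 each). The difference of 0.50 (SE 0.25) corresponds to a ratio of 1.41, with an interval from 0.972 to 2.06, and did not pass (adjusted p = 0.824 in limma, exact permutation p = 0.2). Without placebo replicate 4 the difference was 0.28, and leaving DJ-1 replicates 3 and 4 out gave 0.83. In a comparison of replicates 1 and 2 of both groups only, chosen after seeing the data, it was 0.53.

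Tnfrsf1a encodes the death domain receptor for tumour necrosis factor that most cells carry. Its values were 8.33, 8.44, 8.01 and 8.13 in DJ-1 replicates 1 to 4, against 8.39, 8.10, 8.01 and 7.91 in placebo replicates 1 to 4. The hearts of both groups filled the same range, with 1 DJ-1 heart above every placebo heart. The difference was 0.12 (SE 0.13, interval -0.16 to 0.40). It was 0.051 without DJ-1 replicate 2, 0.22 without placebo replicate 1 and 0.28 with DJ-1 replicates 3 and 4 left out.

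Tnfrsf1b encodes the second receptor for tumour necrosis factor, which lacks a death domain and is abundant on leukocytes and endothelium. It had 6.15, 6.57, 6.29 and 6.37 in DJ-1 replicates 1 to 4, against 6.55, 6.21, 6.25 and 5.94 in placebo replicates 1 to 4. The highest DJ-1 and the highest placebo heart were nearly level, and placebo replicate 4 was again the lowest. The difference of 0.11 (SE 0.14) was 0.0073 without placebo replicate 4, 0.12 with DJ-1 replicates 3 and 4 left out and -0.021 in replicates 1 and 2 of both groups only.

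Tnfrsf12a encodes Fn14, the receptor for the cytokine TWEAK, which has no death domain and is known to be induced in injured tissue. Its values were 8.58, 9.17, 9.58 and 9.27 in DJ-1 replicates 1 to 4, and 9.10, 8.38, 8.86 and 8.50 in placebo replicates 1 to 4. In 3 of the 4 DJ-1 hearts it was above every placebo heart, and the exception, replicate 1, lay below 2 of the placebo hearts. The means were 9.15 ± 0.42 in DJ-1 and 8.71 ± 0.33 in placebo hearts (SD, n = 4 each). The difference of 0.44 (SE 0.21, interval -0.01 to 0.90, ratio 1.36) had the smallest unadjusted p of the members (0.0567) and did not pass in limma (adjusted p = 0.824; exact permutation p = 0.143). Leaving out DJ-1 replicate 1 gave a difference of 0.63, and leaving out replicate 3 of that group gave 0.30. With both replicates 3 and 4 of the DJ-1 group left out it was 0.17, and replicates 1 and 2 of both groups only gave 0.14. Fas and Tnfrsf12a thus had similar differences from different hearts: DJ-1 replicate 3 was the highest heart for Tnfrsf12a and the second lowest for Fas.

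**Figure D2:**
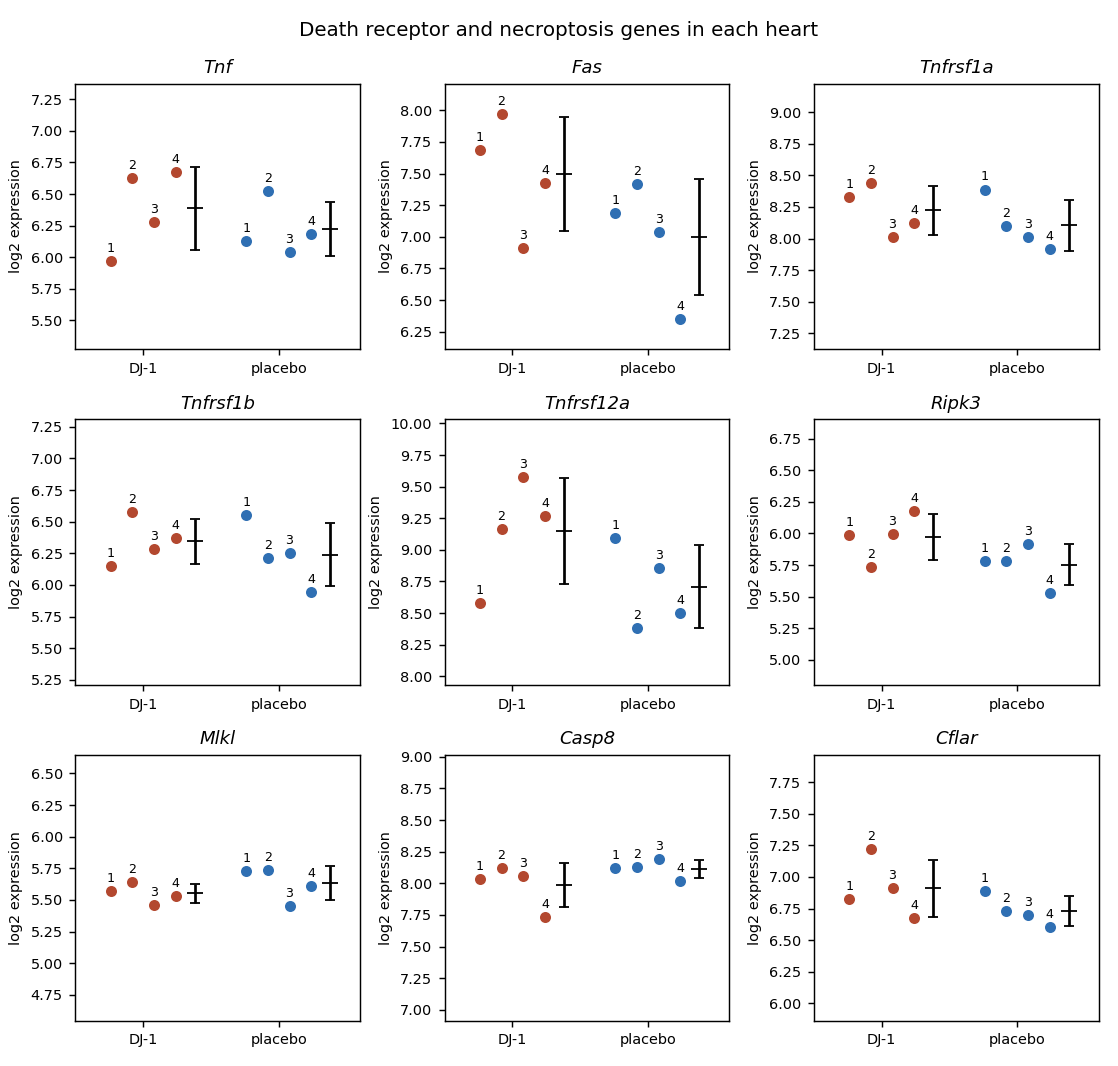
Log2 expression (vertical axes, all spanning the same range) of the 9 measured genes in each heart, with DJ-1 hearts in red and placebo hearts in blue; numbers are replicates, and bars give the mean and SD of 4 hearts. The groups overlap in every panel; placebo replicate 4 is the lowest heart for Fas (6.35), Tnfrsf1a, Tnfrsf1b, Ripk3 and Cflar.

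Among the intracellular genes, Ripk3, the kinase that phosphorylates MLKL, averaged higher in DJ-1 hearts. Its values were 5.98, 5.73, 5.996 and 6.17 in DJ-1 replicates 1 to 4, against 5.79, 5.78, 5.92 and 5.53 in placebo replicates 1 to 4. In 3 of the 4 DJ-1 hearts it exceeded every placebo heart, while DJ-1 replicate 2 lay below 3 of them. The difference of 0.22 (SE 0.12, interval -0.04 to 0.48) did not pass (adjusted p = 0.824 in limma). It was 0.30 without DJ-1 replicate 2, 0.15 without placebo replicate 4, 0.11 with DJ-1 replicates 3 and 4 (its 2 highest hearts) left out, and 0.077 in replicates 1 and 2 of both groups only.

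Mlkl, the pore-forming effector downstream of RIPK3, had the lowest pooled within-group SD of the members, 0.11. It had 5.57, 5.64, 5.46 and 5.53 in DJ-1 replicates 1 to 4, and 5.73, 5.74, 5.45 and 5.61 in placebo replicates 1 to 4. The 2 highest hearts were placebo replicates 1 and 2, and the lowest was placebo replicate 3, so the DJ-1 hearts lay inside the placebo range. The difference was -0.08 (SE 0.10, interval -0.29 to 0.13), and -0.024 with DJ-1 replicates 3 and 4 left out. The interval leaves room for a ratio between 0.817 and 1.10. Mean differences of Ripk3 and Mlkl thus had opposite signs, and neither passed; the difference between them was not tested.

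Casp8 encodes the protease that starts apoptosis below the death receptors and cleaves RIPK1 and RIPK3. Its values were 8.03, 8.12, 8.05 and 7.73 in DJ-1 replicates 1 to 4, against 8.12, 8.13, 8.19 and 8.02 in placebo replicates 1 to 4. One heart, DJ-1 replicate 4, was lower than the rest, and the other 7 lay close together. The difference of -0.13 (SE 0.10, interval -0.36 to 0.10) was -0.045 without that heart and -0.037 with DJ-1 replicate 3 left out as well.

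Cflar encodes cFLIP, which pairs with caspase-8 and limits its activity. It was at 6.83, 7.22, 6.91 and 6.68 in DJ-1 replicates 1 to 4, and at 6.89, 6.73, 6.70 and 6.61 in placebo replicates 1 to 4. DJ-1 replicate 2 was the highest heart, and the difference of 0.18 (SE 0.12, interval -0.09 to 0.45) was 0.076 without it and 0.29 with DJ-1 replicates 3 and 4 left out. Cflar had 3 probe sets under its symbol, and the other 2 gave smaller differences of 0.06 and 0.07. The mean of all 3 differed by 0.10.

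The members were also read heart by heart. DJ-1 replicate 2 was above the gene mean for 8 of the 9 members and the highest heart for 4 of them (Fas, Tnfrsf1a, Tnfrsf1b and Cflar). Placebo replicate 4 was above the gene mean for 1 member, Mlkl, and the lowest heart for 5 (Fas, Tnfrsf1a, Tnfrsf1b, Ripk3 and Cflar). The remaining hearts were mixed: DJ-1 replicate 1 held the lowest Tnf value, DJ-1 replicate 4 the highest Tnf and Ripk3 but the lowest Casp8, and placebo replicate 2 the lowest Tnfrsf12a but the highest Mlkl. Over the 36 pairs of members, Pearson's r across the 8 hearts ran from -0.55 to 0.80 with a median of 0.23, and it was positive for 29. Among Fas, Tnfrsf1a, Tnfrsf1b and Cflar, each pair had r between 0.61 and 0.80. These are the members that were highest in DJ-1 replicate 2, so the set was picked from these same values. The closest pair was Fas with Tnfrsf1a (r = 0.80, exact permutation p = 0.0136; rho = 0.86, exact permutation p = 0.0107). After Benjamini-Hochberg adjustment over the 36 pairs these were 0.396 and 0.386, so no pair passed. Without the 2 hearts farthest from the median of Fas, its r was 0.55 with Tnfrsf1a, -0.28 with Cflar and -0.34 with Tnfrsf1b. Without the 2 hearts farthest for Tnfrsf1a, its r was 0.40 with Cflar and 0.26 with Tnfrsf1b. Tnfrsf1b with Cflar had 0.26 without the 2 hearts farthest for Tnfrsf1b.

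**Figure D3:**
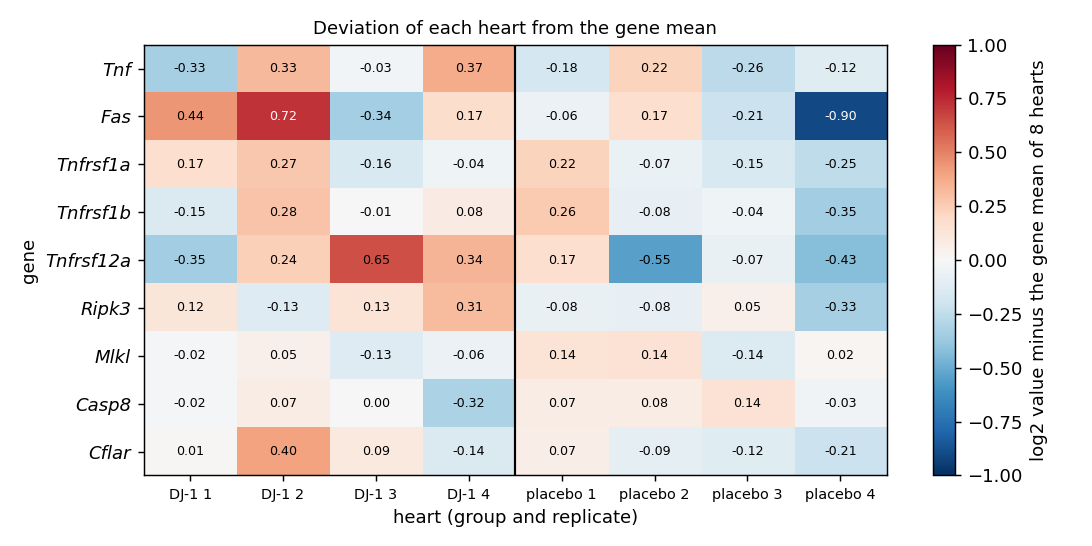
Deviation of each heart (columns, DJ-1 left of the line and placebo right of it) from the mean of the 8 hearts, for each of the 9 genes (rows), on the log2 scale. Fas ranges from -0.90 in placebo replicate 4 to 0.72 in DJ-1 replicate 2, and Tnfrsf12a from -0.55 in placebo replicate 2 to 0.65 in DJ-1 replicate 3.

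Neutrophils enter reperfused heart within hours, and their markers varied between these hearts. All 16 neutrophil markers were measured, 14 of them above the background guide and 2 (Ltf and Mpo) not. All 16 averaged higher in the DJ-1 group, against 52.5% of all genes, and 2 had an unadjusted p under 0.05, against 5.99% of all genes. As markers of 1 cell type, they are not 16 independent observations. They were also known from an earlier analysis of these data to vary widely between hearts, so their direction is not independent evidence. Their mean was 6.78, 7.01, 5.95 and 5.64 in DJ-1 replicates 1 to 4, against 5.83, 6.76, 5.54 and 4.74 in placebo replicates 1 to 4. The highest and lowest hearts were the same 2 as for Fas, DJ-1 replicate 2 and placebo replicate 4.

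Fas followed the neutrophil marker mean across the 8 hearts, with r = 0.89 (exact permutation p = 0.00392, 0.0353 after adjustment over the 9 members). Its rank correlation was 0.76 (exact permutation p = 0.0368, adjusted 0.165), which did not pass. With each group centred on its own mean, r was 0.86. The 2 hearts farthest from the median of the marker mean were DJ-1 replicate 2 and placebo replicate 4. Without them r was 0.66 over the other 6 (exact permutation p = 0.188). Leaving out the extremes also narrows the range of the markers, so this value cannot show whether the relation rests on those 2 hearts. Tnfrsf1a and Cflar had r of 0.69 and 0.68 (adjusted p = 0.192 for each, by exact permutation), with 0.31 and 0.17 over the same 6 hearts and 0.64 and 0.59 after centring. The rank correlation of Cflar, 0.79 (exact permutation p = 0.0279, adjusted 0.165), was above that of Fas and did not pass either. Tnfrsf12a had r = -0.02, with -0.70 over the 6 hearts and -0.36 after centring. The other 5 members had r between 0.18 and 0.44, and after centring 0.60 for Mlkl, 0.60 for Casp8, 0.37 for Tnfrsf1b, 0.16 for Tnf and -0.11 for Ripk3. Over the 6 hearts these 5 had r of 0.49, 0.19, -0.59, -0.063 and -0.34, in the same order. The part of neutrophil content in the Fas difference was not tested. Markers of monocytes and macrophages lay between 6.84 and 7.15 in DJ-1 and between 6.76 and 7.12 in placebo hearts, with 7 of 14 higher, and fibroblast markers between 8.53 and 8.69 in DJ-1 and between 8.59 and 8.83 in placebo hearts, with 2 of 12 higher and 2 of 12 at an unadjusted p under 0.05.

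**Figure D4:**
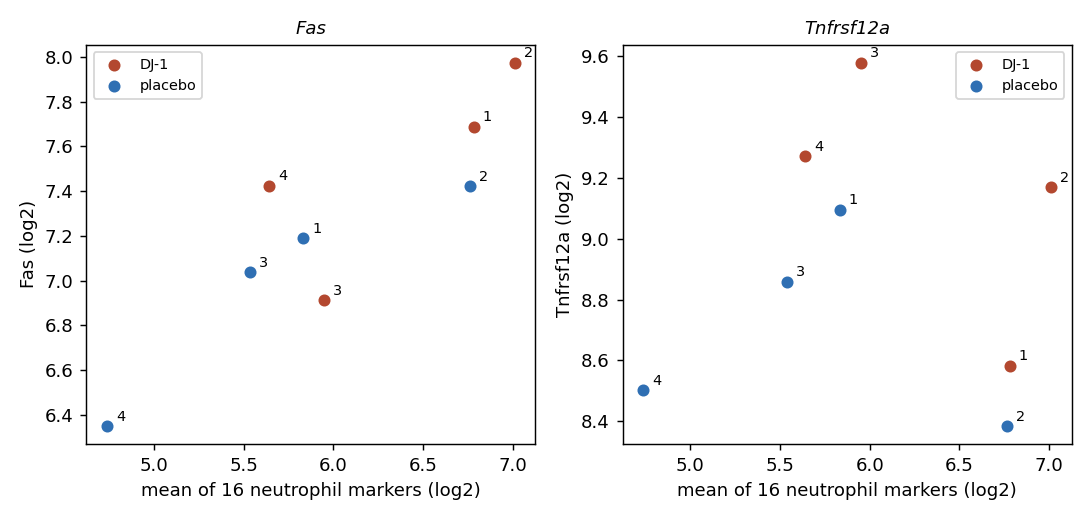
Log2 expression of Fas (left) and Tnfrsf12a (right) in each heart against the mean log2 level of 16 neutrophil markers (horizontal axes); red points are DJ-1 hearts, blue points placebo hearts, and numbers are replicates. Fas runs with the markers (r = 0.89 over 8 hearts) between placebo replicate 4 and DJ-1 replicate 2, and Tnfrsf12a has r = -0.02.

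The genes whose pattern across the 8 hearts was most like that of each variable member were sought among 13077 other named genes above the background guide, after subtracting each group's mean. For Fas they were Entpd1, an ectonucleotidase of leukocytes and endothelium (r = 0.997), Irf8, a transcription factor of myeloid and lymphoid cells (r = 0.98), and Shank3, a scaffold protein (r = 0.97). For Tnfrsf12a they were Bicdl1 (r = 0.98), the transcriptional coregulator Cited2 (r = 0.97) and the carboxylate carrier Slc13a3 (r = 0.96). For Tnf they were Lad1, Gipc3 and Wdr31, with r of 0.96, 0.95 and 0.93. With 8 hearts and so many genes, high values are easily met: 112 genes had r over 0.9 with Fas, 32 with Tnfrsf12a and 6 with Tnf. These correlations describe likeness over the same 8 libraries only.

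The other genes of the pathway were set out in 8 lists with 131 entries, of which 123 were measured under a single symbol. Of these, 0 passed adjusted p 0.05, 3 were higher and 2 lower at an unadjusted p under 0.05. These 5 make 4.07% of the lists, against 5.99% of all genes (3.63% higher and 2.36% lower). Means were higher in DJ-1 hearts for 80 and lower for 43, with a median difference of 0.05. The groups did not overlap for 3 genes, 2 higher and 1 lower, or 2.44%, against 3.22% of all genes (1.54% higher and 1.68% lower).

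Among 13 measured genes for ligands and their release, 9 were higher, 4 lower, and the median difference was 0.165. It was 0.061 without DJ-1 replicate 4, 0.096 without DJ-1 replicate 2, 0.070 without placebo replicate 4 and 0.047 over the genes above the background guide alone. Tnfsf14, the ligand LIGHT, did not overlap between groups, with 4.35, 4.31, 4.23 and 4.23 in DJ-1 replicates 1 to 4 and 3.90, 3.73, 3.93 and 4.05 in placebo replicates 1 to 4. Its mean of 4.09 lay below the background guide, and it did not pass (difference 0.38, SE 0.10, adjusted p = 0.824 in limma). Tnfsf10, which encodes the death ligand TRAIL, ran the other way, at 6.73, 7.19, 6.39 and 6.12 in DJ-1 replicates 1 to 4 and 7.08, 7.12, 6.90 and 7.25 in placebo replicates 1 to 4. In 3 of the 4 DJ-1 hearts it lay below every placebo heart, and replicate 2 was the exception; the difference was -0.48 (SE 0.19, interval -0.90 to -0.06, adjusted p = 0.824). Fasl, the ligand of Fas, had a mean of 3.29, below the background guide, and a difference of 0.26.

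Of 18 other genes of the receptor family, 12 were higher and 6 lower, with a median of 0.10. Tnfrsf25, a death domain receptor of lymphocytes, differed by 0.29 (SE 0.11), the death domain receptor gene Tnfrsf21 by -0.22 and Tnfrsf22, a mouse TRAIL receptor without a death domain, by -0.28. The list median was 0.042 without DJ-1 replicate 2, and 0.011 with replicates 3 and 4 of that group left out.

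Of 21 adaptors, ubiquitin ligases and kinases, 11 were higher and 10 lower, with a median of 0.02. Traf2, the adaptor that brings ubiquitin ligases to the tumour necrosis factor receptor, was at 6.70, 6.88, 6.76 and 6.91 in DJ-1 replicates 1 to 4, against 6.49, 6.58, 6.67 and 6.33 in placebo replicates 1 to 4. The groups did not overlap, and Traf2 did not pass (difference 0.30, SE 0.10, adjusted p = 0.824 in limma). Fadd, the adaptor that joins death domains to caspase-8, had 6.58, 6.53, 6.25 and 6.33 in DJ-1 replicates 1 to 4 and 6.72, 6.69, 6.53 and 6.74 in placebo replicates 1 to 4. Only 1 DJ-1 heart reached into the placebo range, and the difference was -0.25 (SE 0.10, adjusted p = 0.824). The kinase gene Ikbke differed by 0.22. Among 10 deubiquitinases and other brakes, 6 were higher and 4 lower, with a median of 0.0015. The sign of this median depended on single hearts: it was -0.079 without DJ-1 replicate 2, 0.041 without placebo replicate 1 and 0.10 with DJ-1 replicates 3 and 4 left out. Cyld, which removes ubiquitin chains from RIPK1, differed by -0.19, Otud7b by -0.12, and Tnfaip3, the feedback inhibitor A20, by 0.26 (SE 0.31).

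Of 18 necroptosis partners, 11 were higher and 7 lower, with a median of 0.02. Zbp1, a nucleic acid sensor that binds RIPK3, differed by 0.20, and the metabolic enzyme gene Glud1 by -0.14. Hsp90aa1, a chaperone of the necroptosis kinases, differed by 0.48 (SE 0.28) and ranged from 9.42 to 10.58 in DJ-1 and from 8.78 to 10.03 in placebo hearts. Stub1, a ubiquitin ligase that marks RIPK3 for degradation, was named after its values were seen, as the 1 gene of the lists with every DJ-1 heart below every placebo heart. Its difference was -0.13 (SE 0.08, adjusted p = 0.826 in limma). In the caspase cascade 6 of 13 genes were higher and 7 lower, with a median of -0.04. Bid, which links caspase-8 to mitochondria, differed by 0.21, Diablo by 0.11 and Parp1 by -0.10.

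The genes that tumour necrosis factor and NF-kappaB are known to induce had the most uniform sign of the lists. Of 21 measured, 20 averaged higher in DJ-1 hearts, against 52.5% of all genes, and the median difference was 0.20, but none reached an unadjusted p under 0.05 (0 of 21) and 0 passed. Cxcl10, a chemokine gene, had 5.81, 7.01, 5.03 and 6.08 in DJ-1 replicates 1 to 4 and 5.44, 5.57, 5.42 and 5.17 in placebo replicates 1 to 4. Its highest and its lowest heart were both DJ-1 hearts, and its difference was 0.58 (SE 0.31). The neutrophil chemokine Cxcl2 differed by 0.57 (SE 0.35), and Nfkbie, the 1 gene with a lower mean, by -0.17. The list mean was 8.27, 8.93, 7.49 and 8.31 in DJ-1 replicates 1 to 4, against 8.13, 8.38, 7.79 and 7.62 in placebo replicates 1 to 4, so DJ-1 replicate 3 was the lowest heart of all. DJ-1 replicate 2 was the highest heart for this list and for the neutrophil markers, whose mean was also higher in DJ-1 hearts, by 0.63. The part of neutrophil content in this list was not tested. The median difference was 0.08 without DJ-1 replicate 2, 0.41 without DJ-1 replicate 3, and 0.63 when replicates 3 and 4 of that group were both left out. Cytokine genes of this kind had been examined on these data when the list was written, so its direction is not independent evidence.

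**Figure D5:**
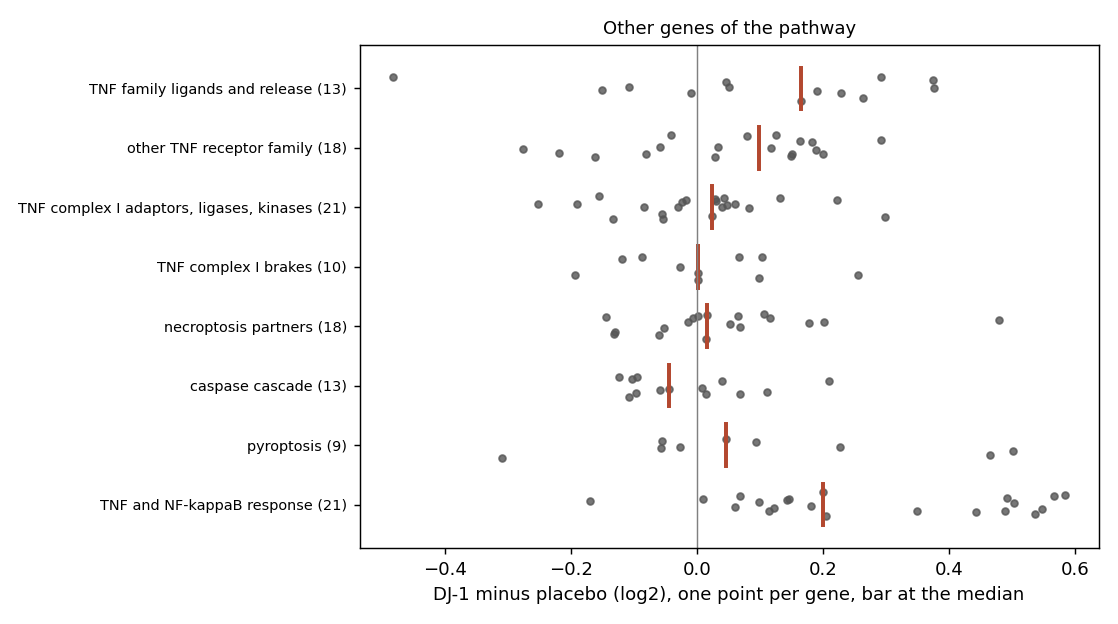
Differences between DJ-1 and placebo hearts (horizontal axis, DJ-1 minus placebo, log2 units) of the other pathway genes, by list (rows, with the number measured); each point is a gene and each bar the list median. The bar of the TNF and NF-kappaB response list stands at 0.20, with 20 of its 21 points above 0, and that of the caspase cascade at -0.04.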

How the data were processed

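Affymetrix whole-transcript arrays were hybridised with material from 100 ng of total RNA whose integrity number exceeded 7, per the labels' protocols. The authors deposited log2 expression of 35556 probe sets, computed by RMA per the submitters' processing notes, with version and annotation build not given in the sources used here. RMA usually includes quantile normalization, so differences are relative to the whole array. The platform annotation gave 1 symbol to 21789 probe sets, several to 1621 and none to 12146. A gene was represented by its singly named probe set of highest mean (19938 genes).

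Groups were compared in R 4.3.3 with limma 3.58.1, using lmFit and eBayes without a covariate, two-sided, and p-values were adjusted by Benjamini-Hochberg over all genes. The fit was tested on simulated data. Alternatives covered normalization, a filter on dim genes, the probe set rule, the variance model, the replicate block and leaving out arrays. Scan batches were not examined. The named genes were the members, the 3 genes of smallest p in each pathway list, any list gene past adjusted p 0.05, and the 3 most alike patterns of the 3 most variable members. Predicted genes and olfactory and vomeronasal receptor genes were left out of the search for alike patterns. The members and lists were chosen with earlier results of these data known. The number of arrays limits the precision (SE 0.10 to 0.25 for the members).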

Additional observations from a re-analysis of the deposited data

How the results depend on the processing

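All 9 members stayed short of adjusted p 0.05 in limma under the 19 alternatives tried (171 values, adjusted p from 0.651 to 1.00), and none of the pathway list genes passed (0). The mean kept its sign for every member except in replicates 1 and 2 of both groups only, a comparison added after seeing the data, where Tnf differed by -0.025 and Tnfrsf1b by -0.021 and 5 members were higher. Leaving out each array in turn gave differences of 0.28 to 0.70 for Fas, 0.30 to 0.63 for Tnfrsf12a, 0.15 to 0.30 for Ripk3, 0.07 to 0.31 for Tnf, 0.05 to 0.22 for Tnfrsf1a, 0.0073 to 0.21 for Tnfrsf1b, 0.08 to 0.26 for Cflar, -0.14 to -0.05 for Mlkl and -0.18 to -0.05 for Casp8. The median over the members ran from 0.08 to 0.22. Over all genes the count past adjusted p 0.05 ran from 0 to 1 as arrays were left out (Pramel27, without DJ-1 replicate 3), and was 1 in replicates 1 and 2 only (Car3). Both genes were named after their values were seen, and the mean of Pramel27, 4.23, lay below the background guide. The 1194 genes at an unadjusted p under 0.05 became 1118 without moderated variances (0 past adjusted p) and 720 in replicates 1 and 2 only. With dim genes left out the count was 781, but fewer genes were tested there, so it cannot be set directly against 1194.

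At an unadjusted p under 0.05, 1 member was found in some of the alternatives, all of which are named here. It was Fas with quantile normalization, cyclic loess, the replicate block, without DJ-1 replicate 3, without placebo replicate 2, without DJ-1 replicates 3 and 4 and in replicates 1 and 2 only. It was Tnfrsf12a with an intensity trend and with replicate 1 of either group left out, and Ripk3 without DJ-1 replicate 2. In these alternatives, between 720 (replicates 1 and 2 only) and 1480 (without DJ-1 replicate 2) of all 19938 genes lay under the same threshold. The main fit had 1194. With the replicate block the Fas difference was 0.50 (adjusted p = 0.723 in limma, within 0.651 to 1.00 over all members and alternatives). The block changed no call at adjusted p 0.05, though Fas lay under 0.05 unadjusted, as listed above. Same-numbered arrays deviated together with r of 0.0045, 0.17, 0.18 and 0.0081, so the numbers were not taken as pairs. Across the groups, each r between a replicate 1 or 2 and a replicate 3 or 4 was negative (-0.28 to -0.026). Each r within replicates 1 and 2, or within 3 and 4, was positive (0.0045 to 0.29). Replicates 1 and 2 thus deviated apart from 3 and 4 in both groups, and the cause was not tested. The list median of other receptors ran from 0.042 to 0.10 as arrays were left out and was 0.011 with DJ-1 replicates 3 and 4 left out, where that of pyroptosis genes was 0.28. In replicates 1 and 2 only, the medians were 0.020 for ligands and 0.075 for adaptors, ligases and kinases. The causes of these shifts were not tested. With group-centred values the correlation of Ripk3 with the neutrophil markers was -0.11, against 0.18.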

Other observations

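Pyroptosis, the lytic death that caspase-1 and gasdermin pores bring about, was covered by 9 genes, all measured. Means were higher in DJ-1 hearts for 5 and lower for 4, with a median difference of 0.05 that was -0.025 after quantile normalization, -0.023 after cyclic loess and -0.026 with all probe sets of a gene averaged, and 0 passed adjusted p 0.05 in limma or reached an unadjusted p under 0.05. Aim2, a sensor of DNA in the cytosol, differed by -0.31 (SE 0.15). Nlrp3, another inflammasome sensor, differed by 0.23 (SE 0.15). Casp4, which encodes the inflammatory caspase for lipopolysaccharide, had 6.66, 6.98, 5.49 and 5.96 in DJ-1 replicates 1 to 4 and 5.94, 6.51, 5.49 and 5.15 in placebo replicates 1 to 4. Its 2 highest hearts were DJ-1 replicates 2 and 1 and its lowest was placebo replicate 4, as for Fas, and its difference of 0.50 (SE 0.33) did not pass (adjusted p = 0.833).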
